A study of Mus musculus with 30 samples.

Results

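Among the 55416 genes of the count table, 10 collagen genes were followed through fracture repair in mice with and without *Apex1* in the limb mesenchyme: *Col3a1*, *Col5a1*, *Col5a2*, *Col6a1*, *Col12a1*, *Col14a1*, *Col13a1*, *Col22a1*, *Col24a1* and *Col27a1*. They were chosen by symbol as the collagens of fibrous tissue and the minor collagens, with earlier results of these data known. *Col13a1* was selected on its lower level in P-Apex1KO calluses at 6-, 10- and 14-dpf (days post-fracture). Its genotype difference on those days is therefore given as a description, with no test, and it is left out of all counts of called genes but that at 3-dpf. Every gene passed the filter on low counts in every comparison.

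RNA came from tissue labelled as fracture callus on every day, after a closed, non-stabilized fracture of the left tibia in adult mice, with 1 library per sample and a sex and a replicate number on each label. Per the study's text, the 3-dpf tissue was the tibia around the fracture and the 6-dpf tissue the whole callus, so that tissue and time cannot be told apart between these days. P-Apex1KO mice carry *Prrx1*-Cre and 2 floxed *Apex1* alleles, so that *Apex1* is lost in cells of the limb bud mesenchyme and kept in blood, vessel and muscle cells. Their WT littermates carry floxed alleles too, and some carry *Prrx1*-Cre with 1 floxed allele. The calluses came from 4 WT and 4 P-Apex1KO mice at 3-dpf, 5 and 3 at 6-dpf, 4 and 3 at 10-dpf and 4 and 3 at 14-dpf. Both sexes were present in each group except that the 3 P-Apex1KO mice at 14-dpf were all female, beside 1 WT female.

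Collagens are triple helices of 3 chains that give connective tissue its strength. Collagen III, made by *Col3a1*, is a fibril-forming collagen of early repair tissue, skin and vessels, and collagen V, made by *Col5a1* and *Col5a2*, starts and limits the growth of fibrils. *Col6a1* encodes a chain of collagen VI, the beaded filaments around cells, while *Col12a1*, *Col14a1* and *Col22a1* encode collagens that sit on the surface of fibrils or at tissue junctions. *Col13a1* encodes a collagen that spans the cell membrane and is known from the neuromuscular junction and from bone. *Col24a1* and *Col27a1* encode late-described fibrillar collagens, of which the first is known from developing bone and the second from cartilage.

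Counts on genes ran from 18334389 to 43111491 per library. Levels are given as CPM, counts relative to the library total scaled by TMM over the 30 libraries, and genotype differences as log2 fold changes of P-Apex1KO over WT with their standard error (SE). They come from quasi-likelihood F tests of edgeR that take sex into account, and each p was adjusted after Benjamini and Hochberg over every gene tested. *Apex1* itself was lower without overlap in P-Apex1KO mice at 6-, 10- and 14-dpf, at 63.6%, 65.3% and 66.4% of the WT mean. Such a lack of overlap held for 11.9%, 10.5% and 23.5% of all genes tested. The test called *Apex1* at 6- and 10-dpf (adjusted p = 0.0071 and 0.0278) but not at 14-dpf (-0.29, SE 0.19, adjusted p = 0.367). At 3-dpf the libraries labelled P-Apex1KO had 90.4% of the WT mean of *Apex1*, with overlap and without a call (-0.15, SE 0.19, adjusted p = 0.927). Replicate 4 of them had 34.5 CPM, above the highest WT library at 33.1 CPM. Replicate 3 of WT at 10-dpf stood apart from its group in several collagens, and results that change without it are given with and without it. Skeletal muscle markers summed to 3063 to 5435 CPM in WT and 7044 to 16116 CPM in P-Apex1KO mice at 6-dpf, where 10 of 12 were called higher. On the other days they also reached higher sums in P-Apex1KO libraries, with overlap and without a call. They summed to 3419 to 4892 CPM in WT and 4860 to 11783 CPM in P-Apex1KO libraries at 3-dpf. At 10-dpf the sums were 1203 to 3757 and 3233 to 6983 CPM, and at 14-dpf 1278 to 4420 and 3194 to 11040 CPM. No marker of the lists for cartilage, osteoblasts, fibroblasts, tendon, muscle, macrophages, lymphocytes and endothelium was at 0 in all libraries of a group. Macrophage markers were called higher for 8, 7 and 6 of 10 genes and lower for 0, 1 and 2 at 6-, 10- and 14-dpf, and lymphocyte markers higher for 4, 2 and 1 of 11. In bulk RNA, fewer cells of a type and less RNA per cell cannot be told apart.

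The genes lie on 7 chromosomes of GRCm39. *Col3a1* (ENSMUSG00000026043) lies on chromosome 1 from 45350698 to 45395840 on the plus strand, and *Col5a2* (ENSMUSG00000026042) lies next to it from 45412554 to 45542442 on the minus strand, so their 3′ ends face each other. *Col13a1* (ENSMUSG00000058806) lies on chromosome 10 from 61674015 to 61814940 on the minus strand, and *Col6a1* (ENSMUSG00000001119) on the same chromosome from 76543440 to 76562283. *Col22a1* (ENSMUSG00000079022) lies on chromosome 15 from 71667644 to 71906095 on the minus strand, and *Col14a1* (ENSMUSG00000022371) on the same chromosome from 55171140 to 55384199. *Col24a1* (ENSMUSG00000028197) lies on chromosome 3 from 144998233 to 145257766 on the plus strand, *Col27a1* (ENSMUSG00000045672) on chromosome 4 from 63132241 to 63253228 on the plus strand, *Col5a1* (ENSMUSG00000026837) on chromosome 2 from 27776397 to 27929526 on the plus strand and *Col12a1* (ENSMUSG00000032332) on chromosome 9 from 79506268 to 79626135 on the minus strand. Each value sums the reads over the exons of the gene.

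The RefSeq table of promoters (build GRCm38.p6) held 6 of the 10 genes, and *Col5a2*, *Col12a1*, *Col14a1* and *Col22a1* were not among them. The 250 bases before the annotated start are shown 5′ to 3′ for *Col13a1* and *Col24a1*, whose levels were lower together in P-Apex1KO calluses, and for *Col3a1* and *Col6a1*, which were not called lower on any day. Capitals mark matches to any of 5 motifs, searched on both strands, and no matches overlap here. The letters TGANTCA stood for the motif of AP-1 factors. Those for RUNX factors were TGTGGT. A SOX match was read as ACAAAG wherever it occurred. The TATA box was searched as TATAAA in the same windows. GC boxes were searched as GGGCGG.
Col13a1, chr10:61979109-61979358, minus strand: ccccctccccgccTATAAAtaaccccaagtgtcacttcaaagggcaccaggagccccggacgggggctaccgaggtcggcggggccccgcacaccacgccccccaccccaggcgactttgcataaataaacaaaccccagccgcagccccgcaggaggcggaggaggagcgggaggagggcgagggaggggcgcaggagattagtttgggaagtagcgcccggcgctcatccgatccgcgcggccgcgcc
Col24a1, chr3:145292222-145292471, plus strand: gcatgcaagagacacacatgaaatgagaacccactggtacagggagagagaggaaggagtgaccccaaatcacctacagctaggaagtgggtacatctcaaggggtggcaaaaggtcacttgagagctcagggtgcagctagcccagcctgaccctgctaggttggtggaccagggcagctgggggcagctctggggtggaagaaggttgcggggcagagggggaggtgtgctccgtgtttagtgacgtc
Col3a1, chr1:45311288-45311537, plus strand: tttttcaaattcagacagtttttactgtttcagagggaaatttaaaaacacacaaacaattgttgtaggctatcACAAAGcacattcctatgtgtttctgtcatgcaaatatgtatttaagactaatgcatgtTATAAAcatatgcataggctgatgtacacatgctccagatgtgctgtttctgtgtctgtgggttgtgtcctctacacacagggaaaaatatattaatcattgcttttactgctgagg
Col6a1, chr10:76726045-76726294, minus strand: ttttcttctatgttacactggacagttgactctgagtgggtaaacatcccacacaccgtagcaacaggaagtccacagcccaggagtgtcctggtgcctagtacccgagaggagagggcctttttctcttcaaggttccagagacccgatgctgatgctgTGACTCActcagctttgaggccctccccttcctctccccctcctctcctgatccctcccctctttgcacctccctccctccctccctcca

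The 4 windows differed in base composition, with 68.8% G and C for *Col13a1*, 58.0% for *Col24a1*, 35.2% for *Col3a1* and 56.0% for *Col6a1*. The *Col13a1* window held a TATAAA 237 bases before the start and the *Col3a1* window held one 117 bases before it, as did 12.4% of all 32851 promoters in the table. An AP-1 match stood 90 bases before the start of *Col6a1* (6.75% of all promoters hold one), and a SOX match 176 bases before that of *Col3a1* (16.5% of all). The windows of *Col5a1* and *Col27a1*, not printed, held GC boxes, as did 32.7% of all promoters. No window of the 6 held the RUNX letters, which 14.0% of all promoters hold. The *Col24a1* window held none of the letters searched.

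*Col13a1*, *Col22a1* and *Col24a1* had a higher mean level in WT mice at each later time point up to 14-dpf, and P-Apex1KO mice had 15.9%, 18.2% and 26.2% of the WT mean at that time. *Col27a1* in P-Apex1KO mice was at 21.3% of the WT mean at 6-dpf and at 96.9% at 14-dpf. Among the collagens of fibrous tissue, the log2 fold changes of *Col3a1*, *Col6a1* and *Col14a1* lay above 0 at 10- and 14-dpf without passing the test.

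**Figure D1:**
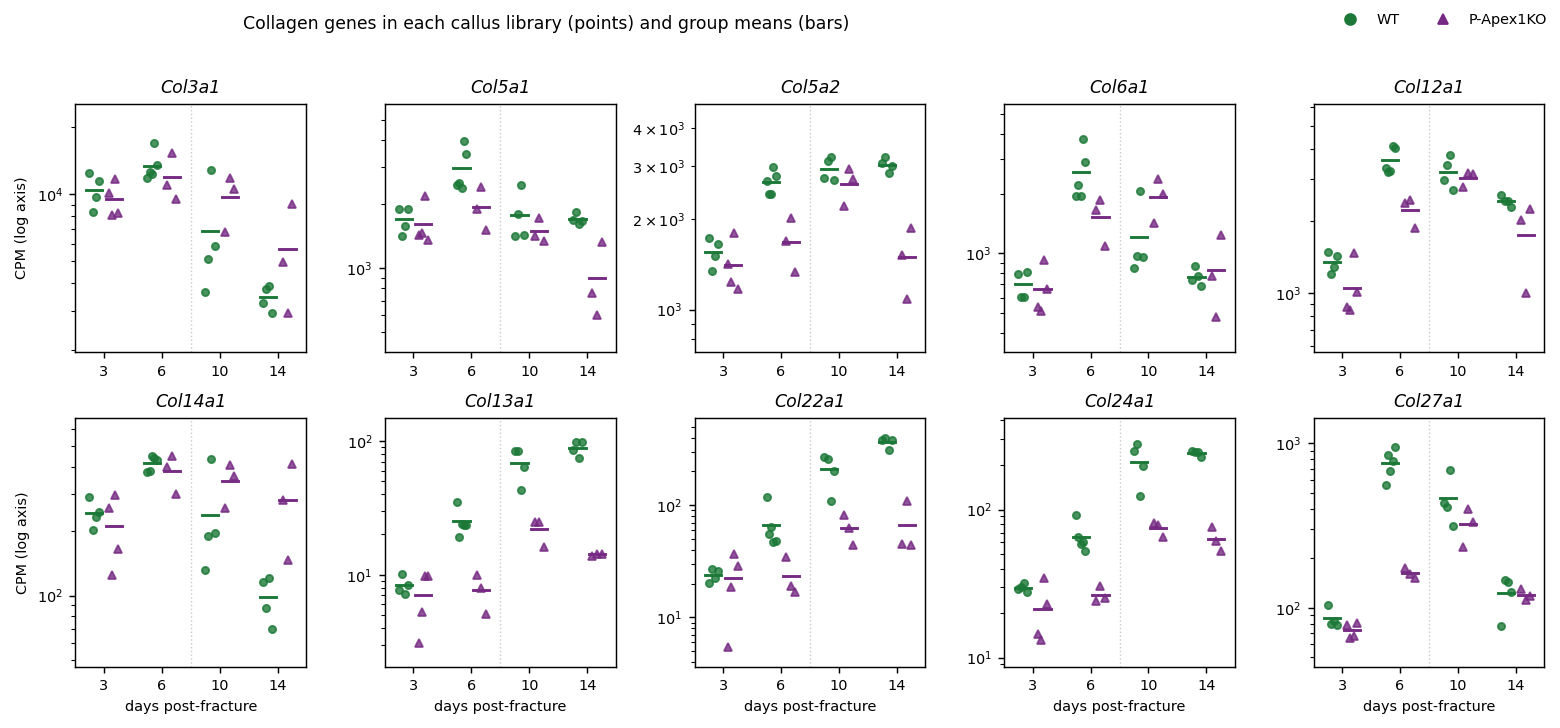
Level of each of the 10 collagen genes in CPM (log axis, own scale per gene) against days post-fracture, with 1 point per mouse (circles WT, triangles P-Apex1KO) and a bar at each group mean. The dotted line stands between 6- and 10-dpf, where library names change. Triangles lie below all circles for *Col13a1*, *Col22a1* and *Col24a1* at 6-, 10- and 14-dpf.

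Called genes were counted beside the share of all genes. Since the genes were chosen with earlier results of these data known, this is a description and no test of an excess. At 6-dpf, 5 of the 9 genes tested were called lower in P-Apex1KO mice (*Col5a2*, *Col12a1*, *Col22a1*, *Col24a1* and *Col27a1*) and 0 higher, where 5.61% of all genes tested were lower and 5.31% higher. At 10-dpf, 2 of the 9 were called lower (*Col22a1* and *Col24a1*) and 0 higher, beside 3.44% and 3.01% of all genes. At 14-dpf, 3 of the 9 were called lower (*Col5a2*, *Col22a1* and *Col24a1*) and 1 higher (*Col27a1*), beside 7.04% and 4.28% of all genes. The median log2 fold change of the 9 was -0.65, -0.19 and -0.53 on these days, where that of all genes was 0.01, 0.00 and 0.04. With library size as the sole scaling, all genes split into 814 lower and 2780 higher at 6-dpf (against 1137 lower and 1075 higher), 464 lower and 849 higher at 10-dpf (against 651 lower and 570 higher) and 766 lower and 1878 higher at 14-dpf (against 1424 lower and 865 higher). The 9 genes kept their directions under it, except *Col14a1* at 6-dpf, which went from -0.08 to 0.10. With sex in the model, each difference at 14-dpf is that between the P-Apex1KO females and the single WT female, replicate 1.

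Read without a test, the genotypes did not overlap, P-Apex1KO below WT, for 6 of the 9 genes at 6-dpf, 2 at 10-dpf and 5 at 14-dpf. The same held for 11.9%, 10.5% and 23.5% of all genes tested on these days. At 14-dpf, 1 of the 9 (*Col14a1*) lay above WT without overlap, as did 18.5% of all genes.

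**Figure D2:**
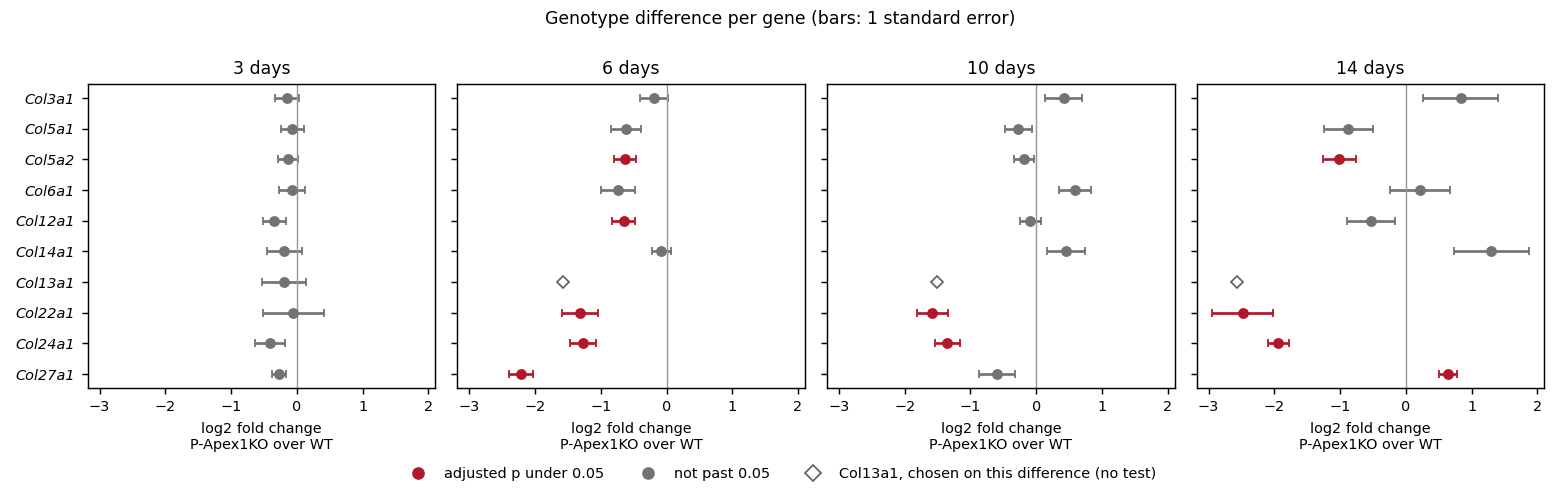
Log2 fold change of P-Apex1KO over WT (x axis) for each gene (y axis) at 3-, 6-, 10- and 14-dpf, with bars of 1 standard error. Red points passed an adjusted p of 0.05, grey points did not, and open diamonds show *Col13a1* on the days it was chosen on. *Col22a1* and *Col24a1* are red and below 0 in the 3 later panels, and *Col27a1* moves from -2.21 at 6-dpf to 0.65 at 14-dpf.

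At 3-dpf the libraries of both labels overlapped for every gene. No gene of the 10 was called by edgeR's quasi-likelihood test or by DESeq2's Wald test, where edgeR called 0.0% of all genes, and 1 of the 10 had an unadjusted p under 0.05, *Col27a1* at -0.28 (SE 0.11) with an adjusted p of 0.768. All 10 log2 fold changes lay below 0, between -0.41 and -0.05. *Col13a1*, whose choice did not use this day, had 7.66, 10.2, 7.15 and 8.43 CPM in WT and 3.09, 5.30, 9.77 and 9.85 CPM in the libraries labelled P-Apex1KO, in the order of their replicate numbers. The difference was -0.20 (SE 0.34, adjusted p = 0.947). Replicate 1 of the libraries labelled P-Apex1KO had the lowest *Col13a1* and, at 5.49 CPM, the lowest *Col22a1* of all 8, and its osteoblast markers summed to 9887 CPM, the lowest as well. Its cartilage and lymphocyte markers were also the lowest of all 8, at 209 and 49.1 CPM. Its muscle and macrophage markers were the highest, at 11783 and 5224 CPM.

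*Col13a1*, the collagen of the cell membrane, stood at 8.36 ± 1.34 CPM (SD, n = 4) in WT calluses at 3-dpf and at 89.2 ± 11.7 CPM (SD, n = 4) at 14-dpf, 10.7 times as high. Tissue and library names change between these days, and neither can be told apart from time. The 5 WT mice at 6-dpf had 34.8, 19.2, 23.9, 23.6 and 23.7 CPM and the 3 P-Apex1KO mice 10.0, 7.92 and 5.05 CPM. At 10-dpf the WT mice had 84, 84.2, 43 and 63.9 CPM and the P-Apex1KO mice 24.9, 24.9 and 16.2 CPM. Each P-Apex1KO mouse lay below each WT mouse on both days, and the lowest WT mouse at 10-dpf was replicate 3. At 14-dpf the WT mice had 85.7, 98.5, 74.2 and 98.3 CPM and the P-Apex1KO mice 13.9, 14.3 and 14.4 CPM, which lay within 1 CPM of each other. These are the values the gene was selected on, with log2 fold changes of -1.57, -1.51 and -2.57, and no test is given for them.

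*Col22a1*, a collagen of tissue junctions best known where muscle meets tendon, had the same order of means over time. At 6-dpf it had 118, 54.8, 63.8, 46.7 and 48 CPM in the WT mice and 34.6, 19.2 and 16.7 CPM in the P-Apex1KO mice, without overlap although replicate 1 of WT stood far above the rest. The difference was -1.32 (SE 0.28, adjusted p = 0.0192), and the adjusted p missed the threshold when a mouse was left out, which was so for WT replicates 2 (0.07) and 4 (0.0544), and P-Apex1KO replicates 1 (0.0554) and 3 (0.106). At 10-dpf the WT mice had 269, 260.1, 108 and 199.9 CPM and the P-Apex1KO mice 81.9, 62.9 and 44.1 CPM, again apart, with a difference of -1.58 (SE 0.23, adjusted p = 0.0177). This call was lost when leaving out WT replicates 1 (0.0613) and 2 (0.0551), and P-Apex1KO replicate 1 (0.125), with the adjusted p in parentheses. By 14-dpf the gap was at its widest, with 378, 396, 309.9 and 377 CPM in WT and 45.2, 110.0 and 44.3 CPM in P-Apex1KO mice and a difference of -2.48 (SE 0.46, adjusted p = 0.0185). The call held in each of the 7 fits without 1 mouse. With sex in the model, leaving out a WT male hardly bears on the size of that difference, and the fit without WT replicate 1 had no sex term. Without the filter on low counts the adjusted p was 0.123, 0.0582 and 0.109 at the 3 time points, so none of these calls held there.

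*Col24a1*, the minor fibrillar collagen of bone, was lower in P-Apex1KO mice at 6-, 10- and 14-dpf. The 6-dpf values were 91.6, 65.2, 58.5, 60.2 and 52.2 CPM in WT and 24.3, 30.6 and 25.2 CPM in P-Apex1KO mice, a difference of -1.27 (SE 0.20, adjusted p = 0.00551). No mouse left out and no other setting ended that call. At 10-dpf the WT mice had 249, 276, 123 and 196 CPM and the P-Apex1KO mice 80.8, 78.1 and 65.8 CPM, with replicate 3 of WT the lowest of its group and still above the 3 P-Apex1KO mice. The difference of -1.35 (SE 0.19, adjusted p = 0.0159) passed, but not when leaving out WT replicate 1 (0.0612) or P-Apex1KO replicate 1 (0.106). At 14-dpf *Col24a1* stood at 247, 245, 244 and 227 CPM in WT and 75.9, 61.3 and 52.2 CPM in P-Apex1KO mice, a difference of -1.94 (SE 0.16, adjusted p = 0.000883) that passed under every setting and in every fit without 1 mouse. Here too, the fits without a WT male hardly bear on the size of the difference. Among P-Apex1KO mice the means at 10- and 14-dpf were 74.9 ± 8.04 and 63.1 ± 12 CPM (SD, n = 3 each).

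Osteoblast markers moved with these 3 genes, and endothelial markers did at 10- and 14-dpf. The 12 markers summed to 39322 to 54675 CPM in WT and 18351 to 28424 CPM in P-Apex1KO mice at 6-dpf, to 45454 to 63977 and 20127 to 30363 CPM at 10-dpf, and to 75946 to 102323 and 19107 to 21897 CPM at 14-dpf. The number called lower was 10, 8 and 7 of 12 on these days, and none was higher. *Col1a1*, the main chain of bone collagen, is in the list and makes up most of these sums. Its mean was 42001 CPM in WT and 22387 CPM in P-Apex1KO mice at 6-dpf, and 78896 and 15474 CPM at 14-dpf. Endothelial markers summed to 873 to 959 CPM in WT and 735 to 816 CPM in P-Apex1KO mice at 10-dpf, and to 1022 to 1115 and 759 to 889 CPM at 14-dpf, without overlap on both days. Of 10 endothelial markers, 0 were called at 6-dpf, 1 was lower at 10-dpf, and 5 were lower and 1 higher at 14-dpf. The part of osteoblast or endothelial content in the levels of *Col13a1*, *Col22a1* and *Col24a1* was not tested. At the neuromuscular junction, where *Col13a1* is also known, 11 other genes gave 2 lower and 5 higher at 6-dpf, 0 lower and 2 higher at 10-dpf, and 1 lower and 0 higher at 14-dpf. *Chrne*, a subunit of the acetylcholine receptor of adult muscle, was higher at 6-dpf (1.48, SE 0.31, adjusted p = 0.0172) and *Lrp4*, the receptor for agrin, lower (-0.87, SE 0.12, adjusted p = 0.00292). *Chrna1* and *Musk*, a further subunit of that receptor and a kinase that gathers it, were higher at 10-dpf by 1.35 and 1.27 (adjusted p = 0.0173 and 0.0151). The part of muscle content in the levels of these junction genes was not tested.

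*Col27a1*, a fibrillar collagen of cartilage, had its highest mean at 6-dpf in WT mice and at 10-dpf in P-Apex1KO mice, days between which library names change. The WT mice rose from 86.2 ± 11.6 CPM (SD, n = 4) at 3-dpf to 561, 845, 676, 781 and 949 CPM at 6-dpf, and the P-Apex1KO mice had 176, 162 and 151 CPM on that day. The groups lay far apart, with a difference of -2.21 (SE 0.18, adjusted p = 0.00041), which passed under every setting and without each mouse in turn. The 12 cartilage markers, all called lower at that time, summed to 35722 to 63770.4 CPM in WT and 3124 to 5764 CPM in P-Apex1KO mice. Their part in the level of *Col27a1* was not tested.

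At 10-dpf the genotypes overlapped for *Col27a1*, with 434, 409, 693 and 316 CPM in WT and 236, 402 and 333 CPM in P-Apex1KO mice. The difference was -0.60 (SE 0.27, adjusted p = 0.229), and it passed in 1 fit, without replicate 4 of WT, the lowest WT mouse, at -0.86 (adjusted p = 0.00874). Cartilage markers summed to 28379.9 to 61288 CPM in WT and 21006 to 32509 CPM in P-Apex1KO mice, with 0 of 12 called. At 14-dpf the WT mice had 77.8, 148, 143 and 125 CPM and the P-Apex1KO mice 129.6, 112 and 118 CPM. The 3 P-Apex1KO mice lay between the WT female, replicate 1, which was the lowest, and the highest WT males.

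The called increase of *Col27a1* at 14-dpf, 0.65 (SE 0.14, adjusted p = 0.0219), therefore rests on that WT female. Without the sex term the difference was -0.01 (adjusted p = 0.987), and without that mouse and the sex term it was -0.17 (adjusted p = 0.199). The adjusted p was 0.0513 without replicate 2 and 0.0612 without replicate 3 of WT. The cartilage markers of the same female summed to 3754 CPM, where the 3 WT males had 9167, 11247 and 9515 CPM and the P-Apex1KO mice 11684, 7575 and 9368 CPM, and 11 of 12 markers were called higher and 1, *Col11a1*, lower (-0.80, SE 0.17, adjusted p = 0.0242) in the fit with sex.

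The chains of collagen V were lower in P-Apex1KO calluses at 6- and 14-dpf in *Col5a2* and not past the test in *Col5a1*. *Col5a2*, a chain of the usual heterotrimer, had 2673, 2426, 2410.3, 2967 and 2763 CPM in WT and 1689, 2010.2 and 1334 CPM in P-Apex1KO mice at 6-dpf, without overlap, and differed by -0.64 (SE 0.17, adjusted p = 0.0425). The call held in 1 of 8 fits without 1 mouse, and was lost when leaving out WT replicates 1 (0.0637), 2 (0.0839), 3 (0.0669), 4 (0.132) and 5 (0.0687), and P-Apex1KO replicates 1 (0.156) and 3 (0.0731). At 14-dpf it had 3059, 3195, 2829 and 2999.6 CPM in WT and 1519, 1087 and 1868 CPM in P-Apex1KO mice, a difference of -1.01 (SE 0.25, adjusted p = 0.0416). Here it was lost when leaving out WT replicates 2 (0.0924), 3 (0.0894) and 4 (0.091), and P-Apex1KO replicate 1 (0.0629), and the adjusted p was 0.0606 with library size as the sole scaling. At 10-dpf the genotypes overlapped, between 2211 and 3211 CPM over both, with a difference of -0.19 (SE 0.15).

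*Col5a1*, the partner of *Col5a2* in that trimer, had 2448, 2527, 2379, 3972 and 3448 CPM in WT and 1887, 2409 and 1507 CPM in P-Apex1KO mice at 6-dpf, where the highest P-Apex1KO mouse lay just above the lowest WT mouse. The difference was -0.62 (SE 0.23, adjusted p = 0.112), and DESeq2's Wald test gave an adjusted p of 0.0229. At 14-dpf the WT mice lay between 1611 and 1828 CPM and the P-Apex1KO mice had 765, 602 and 1327 CPM, without overlap and with a wide spread, at -0.87 (SE 0.37, adjusted p = 0.18). It passed without the sex term (-0.88, adjusted p = 0.025), without WT replicate 1 and the sex term (-0.88, adjusted p = 0.0444), without P-Apex1KO replicate 3 (-1.28, adjusted p = 0.00657) and with all samples in one model (-0.85, adjusted p = 0.0145). *Col5a3*, the third chain, which was not among the 10, did not pass on any day, with log2 fold changes between -0.55 at 14-dpf and 0.42 at 3-dpf.

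*Col12a1*, a collagen on the surface of fibrils in dense connective tissue and periosteum, had 3344, 3204, 3243, 4146 and 4047 CPM in WT and 2374, 2453 and 1878 CPM in P-Apex1KO mice at 6-dpf. The groups did not overlap, and the difference was -0.65 (SE 0.17, adjusted p = 0.0374). The call held in 2 of the 8 fits without 1 mouse, and was lost when leaving out WT replicates 2 (0.0738), 3 (0.0578), 4 (0.12) and 5 (0.064), and P-Apex1KO replicates 1 (0.115) and 3 (0.0739). At 10-dpf *Col12a1* differed by -0.09 (SE 0.16) and the ranges overlapped. At 14-dpf the WT mice had 2576, 2435, 2418 and 2288 CPM and the P-Apex1KO mice 2016, 999.7 and 2242 CPM, below WT without overlap, at -0.53 (SE 0.37, adjusted p = 0.397). Replicate 2 of P-Apex1KO lay far below the other 2.

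*Col3a1*, the collagen of early repair tissue, was the most abundant of the 10 genes per kilobase in each group. It did not pass the test on any day. At 6-dpf the WT mice had 11801, 12544, 12384, 17030.0 and 13556 CPM and the P-Apex1KO mice 11050.1, 15352 and 9519 CPM. In WT mice it had a lower mean on the later days, with 3648, 5149.8, 12849.7 and 5841 CPM at 10-dpf and 3246, 3752, 3900.1 and 2945 CPM at 14-dpf, while the P-Apex1KO mice had 6801, 11845 and 10563 CPM and 4979.9, 2948 and 9066 CPM. Replicate 3 of WT at 10-dpf was the highest library of that day, and the lowest P-Apex1KO mouse at 14-dpf was at the level of the lowest WT mouse. The differences were 0.42 (SE 0.28, adjusted p = 0.403) at 10-dpf and 0.83 (SE 0.57, adjusted p = 0.387) at 14-dpf, and with all 30 samples in one model the 14-dpf difference was 0.96 (adjusted p = 0.0268).

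*Col6a1*, a chain of the filaments around cells, was below WT at 6-dpf without overlap and without passing the test. The WT mice had 1939, 2210.3, 1949, 3775 and 2893 CPM and the P-Apex1KO mice 1652, 1859 and 1086 CPM, at -0.74 (SE 0.26, adjusted p = 0.102), and DESeq2's Wald test gave an adjusted p of 0.0195. At 10-dpf the order was the other way, with 846, 972, 2059 and 959 CPM in WT and 1424, 2367 and 1979 CPM in P-Apex1KO mice. The 3 P-Apex1KO mice lay above all WT mice but replicate 3, and the difference was 0.58 (SE 0.24, adjusted p = 0.19) with that mouse and 0.93 (adjusted p = 0.0204) without it. At 14-dpf the genotypes overlapped at 0.21 (SE 0.46). The partner chain *Col6a2* gave -0.69, 0.51 and 0.07 on the same days and *Col6a3* -0.48, 0.04 and 0.05, none past the test.

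*Col14a1*, a fibril-surface collagen of skin and tendon, had the highest log2 fold change of the 10 at 14-dpf. The WT mice had 116, 87.2, 120.4 and 69.9 CPM and the P-Apex1KO mice 280.1, 146 and 412 CPM, without overlap, but the difference of 1.30 (SE 0.57, adjusted p = 0.194) did not pass. It passed without the sex term (1.55, adjusted p = 0.0128) and in DESeq2's Wald test (1.31, adjusted p = 0.0301). The same was so without WT replicate 1 and the sex term (1.64, adjusted p = 0.0153) and with all samples in one model (1.58, adjusted p = 0.002). With the replicate number as a block it passed too (1.30, adjusted p = 0.0178), but the labels state no pairing by that number. At 10-dpf it had 132, 189.6, 437 and 197 CPM in WT and 256, 410.2 and 365 CPM in P-Apex1KO mice, at 0.45 (SE 0.29, adjusted p = 0.391) with replicate 3 of WT and 0.84 (adjusted p = 0.0239) without it. At 6-dpf the genotypes overlapped, with 378 to 451 CPM in WT and 298 to 449 CPM in P-Apex1KO mice. Fibroblast markers summed to 3188 to 3605 CPM in WT and 2249 to 4301 CPM in P-Apex1KO mice at 14-dpf, with 1 of 12 called lower and 0 higher, and tendon markers to 523 to 658 and 525 to 1062 CPM, with 1 of 8 called higher. Their part in the level of *Col14a1* was not tested.

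Levels were set against each other per kilobase of exon sequence. In WT calluses at 3-dpf the order ran from *Col3a1* at 1021 ± 178 CPM per kilobase (SD, n = 4) down to *Col13a1* at 1.77 ± 0.283, and neighbours in that order were apart except *Col5a2* and *Col6a1*, and *Col22a1* and *Col13a1*, whose ranges overlapped. By 14-dpf the WT order was *Col3a1* at 337 ± 43.1, *Col5a2* at 270.2 ± 13.6, *Col5a1* at 194 ± 10.7, *Col12a1* at 159 ± 7.70 and *Col6a1* at 131 ± 13.2, followed by *Col22a1* at 38.3 ± 3.97, *Col24a1* at 31.6 ± 1.22 and *Col13a1* at 18.8 ± 2.46, with *Col14a1* at 14 ± 3.41 and *Col27a1* at 9.48 ± 2.46 last. There the ranges of neighbours overlapped only between *Col13a1*, *Col14a1* and *Col27a1*. In P-Apex1KO calluses at 14-dpf, *Col13a1* stayed last at 2.99 ± 0.0585 CPM per kilobase (SD, n = 3), below *Col22a1* at 6.96 ± 3.95 without overlap. *Col14a1* at 39.8 ± 18.9 stood above *Col27a1*, *Col24a1* and *Col22a1* there.

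Changes over time within a genotype were tested inside the pairs 3- and 6-dpf, and 10- and 14-dpf, since library names change between 6- and 10-dpf, where time and that change cannot be told apart. Within the first pair the dissected tissue differed too, so its changes can be those of tissue or of time. From 3- to 6-dpf, 8 of the 9 genes tested were called higher in WT mice, all but *Col3a1* (0.34, SE 0.18, adjusted p = 0.161), beside 15.4% of all genes called higher and 15.1% lower. The increase was 3.12 (SE 0.14) for *Col27a1*, 1.84 (SE 0.24) for *Col6a1* and 1.37 (SE 0.16) for *Col12a1*, and lay between 0.73 and 1.32 for the other 5. In P-Apex1KO mice 4 of the 9 were called higher, *Col6a1* by 1.22 (SE 0.26), *Col27a1* by 1.17 (SE 0.15), *Col12a1* by 1.10 (SE 0.17) and *Col14a1* by 0.86 (SE 0.23), beside 7.1% of all genes higher and 6.91% lower. By library size alone the split of all genes was 6984 lower and 1902 higher in WT, with a median of -0.27, and 7 of the 9 were called higher. Without replicate 2 of P-Apex1KO at 6-dpf, 2 of the 9 were called, as the adjusted p of *Col6a1* was 0.051 and that of *Col14a1* 0.12.

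That a gene was called in WT and not in P-Apex1KO mice does not show that its change differed. Of the 9 genes whose interaction was tested, 1 was called, *Col27a1*, beside 1.3% of all genes. Its genotype difference fell by 1.95 on the log2 scale between 3- and 6-dpf (SE 0.20, adjusted p = 0.000443). For *Col22a1* the difference changed by -1.28 (SE 0.57, adjusted p = 0.385), for *Col24a1* by -0.73 (SE 0.35, adjusted p = 0.412) and for *Col3a1* by -0.01 (SE 0.26, adjusted p = 0.997).

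From 10- to 14-dpf, *Col27a1* was the 1 gene of the 9 called in WT mice, at -2.09 (SE 0.21, adjusted p = 0.000244), beside 4.92% of all genes called lower and 6.19% higher. *Col14a1* just missed the threshold with -1.32 (SE 0.38, adjusted p = 0.0512) and was called under 5 of 7 other settings. *Col3a1* had -1.07 (SE 0.34, adjusted p = 0.0668) and *Col22a1* 0.98 (SE 0.32, adjusted p = 0.0749), and without replicate 2 of P-Apex1KO at 14-dpf 5 of the 9 were called. In P-Apex1KO mice edgeR called 0 of the 9, beside 0.259% of all genes, with 5 at an unadjusted p under 0.05, and DESeq2's Wald test called 2. No genotype difference of the 9 changed past the threshold between these days in either tool, where 0.436% of all genes did, although 4 of the 9 had an unadjusted p under 0.05. Without replicate 4 of WT at 10-dpf the change of *Col27a1* was 1.45 (adjusted p = 0.0046).

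Ratios of collagen reads within a library do not move with the scaling between libraries. The ratio of *Col3a1* to *Col1a1*, the main chain of bone collagen, was 0.259, 0.356, 0.343, 0.339 and 0.317 reads per read in the WT mice and 0.472, 0.576 and 0.556 in the P-Apex1KO mice at 6-dpf. By 14-dpf it was 0.0352, 0.0473, 0.0601 and 0.0372 in WT and 0.339, 0.188 and 0.565 in P-Apex1KO mice, a geometric mean 7.52 times that of WT. The genotypes did not overlap on either day. At 10-dpf they did, through replicate 3 of WT, with 0.084, 0.0971, 0.358 and 0.166 in WT and 0.296, 0.548 and 0.754 in P-Apex1KO mice.

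The exact two-sided permutation p of that ratio was 0.0357 at 6-dpf and 0.0571 at 14-dpf, in each case the smallest that 5 against 3 and 4 against 3 mice allow. The p at 10-dpf was 0.114 and at 3-dpf 0.971. For *Col27a1* to *Col2a1*, the main collagen of cartilage, the ratio was 0.0319 in WT and 0.188 in P-Apex1KO mice at 6-dpf (geometric means, exact p = 0.0357), and 0.0316 and 0.0638 at 10-dpf (exact p = 0.0571), without overlap on both days. At 14-dpf it was 0.0667 and 0.0650, with overlap. At these group sizes no ratio could pass 0.05 after Benjamini-Hochberg adjustment over the 12 ratio tests, however far apart the genotypes lay. That 0 passed therefore decides nothing. The smallest adjusted value from the exact permutation tests was 0.171, and 2 of 12 had an unadjusted p under 0.05, which 4 against 3 mice cannot reach.

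The ratio of the collagen V chains, *Col5a1* to *Col5a2*, did not part the genotypes on any day. Its geometric mean was 1.08 in WT and 1.14 in the libraries labelled P-Apex1KO at 3-dpf, and 1.09 and 1.15 at 6-dpf. At 10-dpf it was 0.591 and 0.569, and at 14-dpf 0.561 and 0.583. The exact p between genotypes ran from 0.343 to 0.857. The step between 6- and 10-dpf, seen in both genotypes, falls where the library names change, so time and that change cannot be told apart in it.

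**Figure D3:**
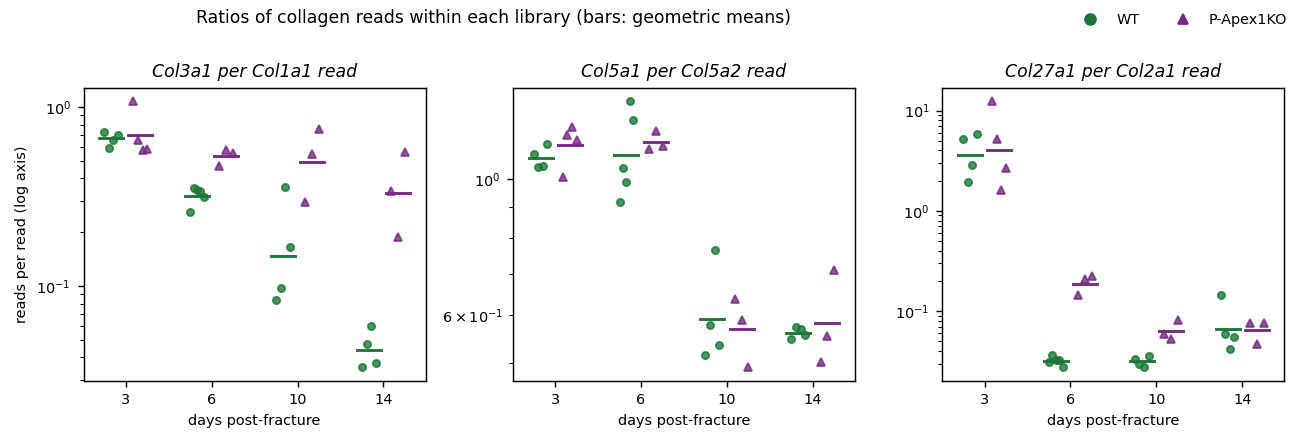
Reads of one collagen gene per read of another in each library (log axes) against days post-fracture, with circles for WT mice, triangles for P-Apex1KO mice and bars at geometric means. The ratio of *Col3a1* to *Col1a1* has a geometric mean of 0.0439 in WT and 0.330 in P-Apex1KO mice at 14-dpf, and that of *Col5a1* to *Col5a2* overlaps between genotypes on every day.

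Within groups the 10 genes varied in blocks. After the mean of each of the 8 groups was removed from log2 CPM over the 30 libraries, the 15 pairs among *Col3a1*, *Col5a1*, *Col5a2*, *Col6a1*, *Col12a1* and *Col14a1* had Pearson r from 0.71 to 0.92. The 3 pairs among *Col13a1*, *Col22a1* and *Col24a1* had r of 0.87, 0.70 and 0.66, a set that the choice of *Col13a1* did not use, since the group means were taken out. Between these blocks the 18 pairs ran from -0.50 (*Col3a1* and *Col22a1*) to 0.22 (*Col12a1* and *Col13a1*). *Col27a1* had r from 0.27 to 0.53 with the first block and from -0.41 to -0.26 with the second. The blocks were named after the values were seen, the points share their libraries and scaling, and no test is given.

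**Figure D4:**
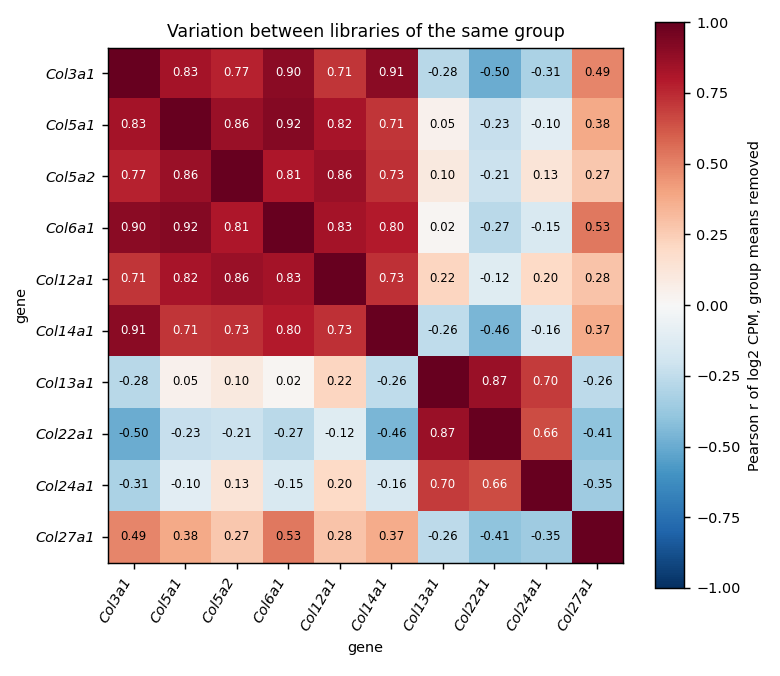
Pearson r of log2 CPM between each pair of genes (rows and columns) over 30 libraries after removing the mean of each group of genotype and day, red for positive and blue for negative values. The 6 genes from *Col3a1* to *Col14a1* form 1 red block with r of at least 0.71, and *Col13a1*, *Col22a1* and *Col24a1* a second, with r of at least 0.66.

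Across all 30 libraries, with the mean of each day removed and the genotypes left in, each gene was set against 13794 protein-coding genes whose mean reached 1 CPM. The nearest to *Col13a1* were *Kazald1* (r = 0.97), *Ifitm5* (r = 0.97) and *Mmp16* (r = 0.97). *Col22a1* was close to *Ppm1e* (r = 0.97), *Col24a1* was most like *Mmp16* (r = 0.98) and *Cdh2* (r = 0.96), and *Col27a1* most like *Xylt1* (r = 0.95) and *Aldh1a3* (r = 0.94). Among the collagens of fibrous tissue, *Col6a1* was most like *Col6a2* (r = 0.99) and *Rtkn* (r = 0.90), *Col3a1* most like *Mrgprf* (r = 0.97) and *Prnp* (r = 0.93) and *Col14a1* most like *AW551984* (r = 0.98) and *Abi3bp* (r = 0.96). *Col5a1* came nearest to *Chpf* (r = 0.95) and *Clip3* (r = 0.93), *Col5a2* to *Cul7* (r = 0.96) and *Maged1* (r = 0.96) and *Col12a1* to *Ephb2* (r = 0.95) and *Pdgfrl* (r = 0.94). *Ifitm5* is a membrane protein of osteoblasts, *Mmp16* a membrane-bound metalloproteinase and *Xylt1* the enzyme that starts proteoglycan chains. These are descriptions over libraries that share the genotype difference, and for *Col13a1* they include the values it was chosen on.

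The other collagens gave the frame. Of 34 further collagen genes, 12 were called lower and 0 higher at 6-dpf with a median log2 fold change of -0.43, 2 lower and 1 higher at 10-dpf (0.03), and 5 lower and 6 higher at 14-dpf (0.16). The genes higher at 14-dpf include *Col2a1*, *Col9a1*, *Col9a2*, *Col9a3* and *Col10a1* of cartilage, while *Col11a1* and *Col11a2* were lower. With sex in the model these differences are to the single WT female, whose cartilage markers were the lowest of her group. For *Col2a1* that difference was 1.84, while its P-Apex1KO mean was 85.8% of the WT mean, with overlap. *Col2a1* and *Col10a1*, collagens of cartilage, were lower at 6-dpf, at -4.68 and -3.96 (adjusted p = 0.000271 and 0.000623). *Col1a1* was lower at 6-, 10- and 14-dpf, at -0.88, -1.01 and -2.55 (adjusted p = 0.0498, 0.042 and 0.000883). *Col28a1*, a collagen of nerve, was higher at 10-dpf (1.00, SE 0.22, adjusted p = 0.0382). None of these lists had a gene called at 3-dpf.

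Collagen receptors, which bind these fibrils at the cell surface, were called in both directions. Among 14 genes, 4 were lower at 6-dpf, 4 at 10-dpf and 5 at 14-dpf, and 1, 1 and 2 higher. *Itga10*, the integrin chain of chondrocytes, was lower at 6-dpf (-1.68, SE 0.18, adjusted p = 0.00116), as was *Cspg4*, a proteoglycan that binds collagen VI (-2.02, SE 0.21, adjusted p = 0.00106). *Lair1*, an inhibitory receptor of leukocytes, was higher at 10-dpf (0.93, SE 0.18, adjusted p = 0.0265), and *Mrc2*, which takes up cleaved collagen, was lower at 14-dpf (-1.42, SE 0.13, adjusted p = 0.00114).

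Among 14 partners of collagen fibrils in the matrix, 3 were called lower and 2 higher at 6-dpf, 1 lower and 0 higher at 10-dpf and 2 lower and 0 higher at 14-dpf. *Fn1*, fibronectin, was lower at 6-dpf (-1.12, SE 0.25, adjusted p = 0.0234) and *Tnxb*, a tenascin of loose connective tissue that binds collagen fibrils, higher (1.13, SE 0.15, adjusted p = 0.00235). *Tnc*, the tenascin of healing tissue, was lower at 10-dpf (-0.83, SE 0.18, adjusted p = 0.0339) and at 14-dpf (-1.96, SE 0.16, adjusted p = 0.000883), the latter with *Sparc*, a collagen-binding protein of bone (-1.44, SE 0.18, adjusted p = 0.00321).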

How the data were processed

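Raw read counts per gene, deposited by the authors without normalization, were used for 30 callus libraries. Per the labels and methods, rRNA and beta globin RNA were depleted, stranded libraries were sequenced from both ends, and the authors aligned reads with STAR 2.7.0d to mm39 and counted uniquely mapped, reverse-stranded reads with featureCounts on Ensembl genes. For positions, GENCODE M39 (GRCm39, equal to mm39) was used, which holds 54749 of the 55416 IDs.

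Genotypes were compared at each time point with edgeR 4.0.16 in R 4.3.3 (filterByExpr, TMM, genotype and sex, robust quasi-likelihood F tests, Benjamini-Hochberg adjustment over all genes, threshold 0.05), and pairs of time points with 4 groups and sex. SE is the log2 fold change over the square root of F. Log2 CPM used a prior count of 2. Ratios were tested by exact permutation. The method was tested on simulated counts. Each p measures the spread between samples. All 10 genes are named. Partner genes are named for their chain, and list genes by the largest called changes (at most 2 per list and day). A gene that the rule on likeness would name is not reported here. The 10 genes and all lists were chosen with earlier results of these data known. No replicate differed from another by as little as sampling noise. At 3-dpf alone, all mice that share a replicate number had a positive r of deviations (0.15, 0.18, 0.22 and 0.52), which does not show that they were paired. Nothing in the labels states a pairing, and at 3-dpf no gene of the 10 was called with or without that number as a block. DESeq2 1.42.0, no sex term, other scalings and filters, the replicate number as a block, 1 model over all samples and each mouse left out were the alternatives.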

Additional observations from a re-analysis of the deposited data

Results flagged for a closer look

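In 5 of 50 groups of 4 or 5 mice, the highest or lowest mouse stood apart from the rest by Dixon's 95% criterion, where chance gives about 1 in 20. *Col5a1* stood at 2172 CPM in replicate 3 of the libraries labelled P-Apex1KO at 3-dpf, beside 1359.8, 1428 and 1456 CPM. *Col6a1* stood at 2059 CPM in replicate 3 of WT at 10-dpf, the library that was also highest of its group in *Col3a1* and *Col14a1*, and *Col22a1* at 117.9 CPM in replicate 1 of WT at 6-dpf. *Col24a1* was low at 227 CPM in replicate 4 of WT at 14-dpf, beside 244, 245 and 247 CPM, and *Col27a1* was high at 103 CPM in replicate 1 of WT at 3-dpf. The genotype difference of *Col27a1* itself differed between 3- and 6-dpf by -1.95 (log2; adjusted p = 0.000443 by edgeR's interaction term), and each of the 3 P-Apex1KO mice at 6-dpf lay below each WT mouse.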

How the results depend on the processing

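The counts of called genes kept within 1.5 times under every planned setting at 3-dpf, for WT mice from 3- to 6-dpf and for the change of the genotype difference between 3- and 6-dpf. At 6-dpf, 5 genes were called against 3 with the replicate number as a block, and 2 to 5 with 1 mouse left out (2 without WT replicates 2 or 4 or P-Apex1KO replicates 1 or 3, 3 without WT replicates 3 or 5). At 10-dpf, 2 were called against 1 without a filter on low counts, and 0 to 4 with 1 mouse left out (0 without WT replicate 1 or P-Apex1KO replicate 1, 1 without WT replicate 2, 4 without WT replicate 3). At 14-dpf, 4 were called and 2 to 5 with 1 mouse left out (2 without WT replicates 2 or 3), and *Col27a1* turned from 0.65 to -0.0058 without the sex term and to -0.17 without WT replicate 1 and the sex term. Library size as the sole scaling gave all genes a median difference of 0.20 at 6-dpf and 0.31 at 14-dpf on the log2 scale.

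In P-Apex1KO mice 4 genes were called from 3- to 6-dpf and 2 to 4 with 1 mouse left out (2 without replicate 2 at 6-dpf). *Col13a1*, not tested there, had 0.10 and -0.12 to 0.39 with 1 mouse left out. From 10- to 14-dpf in WT, 1 was called, against 3 by DESeq2 and by library size alone, 2 without the sex term, with at least 10 counts in every sample and with the replicate block, and 1 to 5 with 1 mouse left out (5 without P-Apex1KO replicate 2 at 14-dpf, 3 without P-Apex1KO replicate 3 at 14-dpf, 2 without WT replicate 1 at 10- or 14-dpf). In P-Apex1KO mice 0 were called, against 2 by DESeq2, without the sex term and with the replicate block, and 0 to 1 with 1 mouse left out (1 without P-Apex1KO replicate 3 at 14-dpf or WT replicate 4 at 10-dpf). The change of the genotype difference between 10- and 14-dpf was called for 0 genes, and 0 to 1 with 1 mouse left out (1 without WT replicate 4 at 10-dpf). The cause of these changes was not tested.

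Beyond 3-dpf, replicates with the same number had r of deviations from -0.12 to 0.11 at 6-dpf, -0.25 to 0.28 at 10-dpf and -0.37 to -0.11 at 14-dpf. The labels state no pairing, so the block carries no known pairing on any day. With 3 to 5 mice a group, the number of mice limits the precision.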
